A study of Mus musculus with 18 samples.

Results

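Lipid droplets of the liver were followed through 10 genes, taken by symbol from a liver RNA sequencing table of 19057 rows. They are the perilipins Plin2, Plin3, Plin4 and Plin5, which coat the droplet, Cidea and Cidec, which fuse droplets, the triglyceride lipase Pnpla2 and its inhibitor G0s2, and the phosphatidate phosphatases Lpin1 and Lpin2. They filled 11 rows, because the symbol Plin2 occurred in 2; the second Plin2 row held 0.00 to 0.14 RPKM and was not used. RPKM counts the reads of a gene per unit of transcript length and of library depth, so levels of different genes can be set side by side within a library, whereas comparisons between mice also depend on how the libraries are scaled.

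Livers came from ICR mice aged 10 weeks, 3 mice in each of 6 groups. Con mice had regular diet and saline, and STZ mice were injected with streptozotocin, a toxin taken up by the insulin-producing beta cells of the pancreas. A10-FMT and Con-FMT mice also had STZ and then received, by mouth, small intestinal content of donors that had been given alginate oligosaccharide (AOS) at 10 mg/kg or water alone; no group received a transfer without STZ. AOS mice were given AOS at 10 mg/kg and STZ+AOS mice had both, and these last groups are known here from the sample labels alone. The labels name no litter, cage or sequencing batch, and nothing in them says how the mice of a group were related, so p-values measure the spread between these mice only.

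The value of 1 read in 30 to 54 short genes per library put the depth at about 10850000 to 12390000 mapped reads (median 11820000). These genes were picked by a preset window for that value. The depth could therefore only fall within set bounds, and it and the read counts drawn from it are a rough guide. All 8 hepatocyte markers were present in every library, led by albumin (Alb) at 24370 to 37720 RPKM. STZ mouse 3 stood apart from its group. Its mean absolute log2 difference from the Con mean over all tested genes was 0.319, against 0.506 and 0.508 in STZ mice 1 and 2, and lay within the 0.262 to 0.414 of the 6 FMT mice. STZ+AOS mouse 3 also stood apart. Its 7 markers of the exocrine pancreas summed to 79.97 RPKM, against 3.45 and 5.16 in STZ+AOS mice 1 and 2, led by the chymotrypsinogen gene Ctrb1 at 36.45 RPKM (0 and 0.09 in its group mates). The hepatocyte regulator Hnf4a was at 345.6 RPKM in this mouse, against 179.2 and 157.1 RPKM. What part these differences had in the results was not tested. The main comparisons of the 10 genes and the counts over the lipolysis, synthesis, droplet protein and PPAR alpha gene lists are given with and without these mice. STZ mouse 3 was picked out by these same values, as nearer to Con than its group mates, so leaving it out favours larger STZ changes. Counts over cell markers are given with all mice only.

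Hepatocytes store surplus fatty acids as triglyceride inside droplets wrapped in perilipins. The lipase ATGL, made from Pnpla2, takes the first fatty acid off the triglyceride, is activated by Abhd5 and is blocked by the small protein G0S2. Lipins make the diacylglycerol from which triglyceride is built, and lipin-1 also acts in the nucleus as a partner of PPAR alpha in fasting and in insulin deficiency, states in which insulin no longer restrains fat breakdown.

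Plin2 was by far the most abundant of the 10 genes, at 154 ± 6.85 RPKM in Con (mean ± SD, n = 3). It was followed by G0s2 at 30.3 ± 14.8, Pnpla2 at 19.7 ± 0.993, Plin5 at 16.0 ± 1.30, Plin3 at 13.9 ± 2.14, Lpin2 at 11.9 ± 1.75 and Lpin1 at 5.12 ± 0.874 RPKM. The ranges of G0s2 and Pnpla2 overlapped in Con, as did those of Plin5 with Plin3 and of Plin3 with Lpin2. Plin4, Cidec and Cidea stayed under 1 RPKM in every Con mouse. In STZ the order behind Plin2 was another one, with Pnpla2 at 75.4 ± 27.5, Lpin2 at 57.6 ± 18.6 and Lpin1 at 54.8 ± 13.6 RPKM ahead of Plin5 at 26.1 ± 6.46, Plin3 at 18.6 ± 3.45 and G0s2 at 10.3 ± 10.1 RPKM. The ranges of Pnpla2, Lpin2 and Lpin1 overlapped there, so their order among themselves was within the spread.

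**Figure D1:**
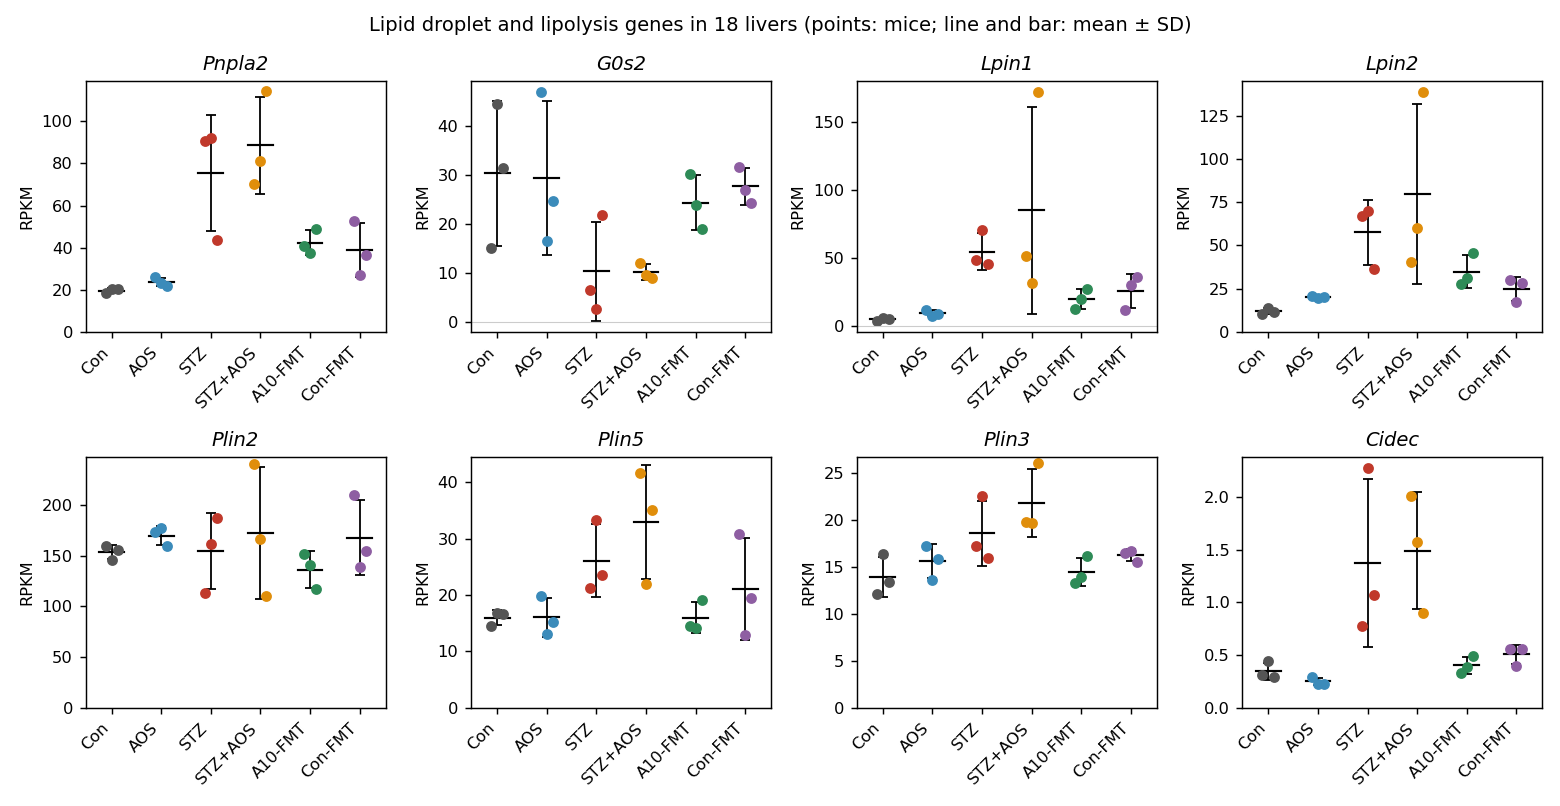
RPKM of 8 genes (y axes, linear) in the 3 mice of each of the 6 groups (x axes); points are mice, the line and bar are the mean and SD. Pnpla2, Lpin1 and Lpin2 lie higher in all 6 STZ and STZ+AOS mice than in any Con or AOS mouse, the means of the FMT groups lie between for these genes, and Plin2 shows no such order.

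The first question was what STZ did to these genes in the liver. Of the 7 that could be tested, 5 were called (limma on log2(RPKM + 1), adjusted p under 0.05), Pnpla2, Lpin1, Lpin2 and Plin3 higher and G0s2 lower. The same comparison called 38.5% of all 10602 tested genes, 33% higher and 5.52% lower, so a call was common in this liver. In whole liver, a change in the number of cells of a type and in the RNA per cell cannot be told apart. The median log2 change was 0.65 over the 7 genes and 0.21 over all genes. That shift of all genes depends on the scaling. Setting the libraries to a common median ratio, median or distribution put it between -0.03 and -0.01, and the share of calls that were higher went from 85.7% to between 46.6% and 51.7%. Such scalings take out a shift of all genes whatever its source, and its source was not tested. Pnpla2, Lpin1, Lpin2 and G0s2 kept their direction and their call under all 3 scalings, while Plin3 lost its call. Without STZ mouse 3 the same 5 genes were called, among 5012 of all genes.

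Lpin1 changed most of the 7. It was at 4.20, 5.94 and 5.22 RPKM in Con mice 1, 2 and 3 and at 48.5, 70.3 and 45.5 RPKM in the STZ mice. Every STZ mouse had more than the highest Con mouse by a wide margin. The log2 change was 3.17 ± 0.35 (SE), a 9.01-fold rise of RPKM + 1 (adjusted p = 0.000342). Leaving out each mouse in turn gave log2 changes of 2.98 to 3.29, all called.

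Lpin2, the lipin most abundant in the Con liver, moved the same way. Con mice had 10.2, 13.7 and 11.9 RPKM and STZ mice had 66.9, 69.8 and 36.2 RPKM. STZ mouse 3 was the lowest of its group and still above all Con mice. The log2 change was 2.13 ± 0.28, a 4.38-fold rise (adjusted p = 0.000567), and 2.43 without STZ mouse 3 (adjusted p = 6.73e-05). Lpin3, the remaining lipin, was at 1.52 ± 0.0907 RPKM in Con and 1.55 ± 0.335 in STZ, with a log2 change of 0.01 (adjusted p = 0.964) that turned to between -0.24 and -0.13 under the 3 scalings, not called.

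Pnpla2, the source of ATGL, was tightly grouped in Con at 18.6, 20.3 and 20.3 RPKM. STZ mice 1 and 2 had 90.6 and 92.0 RPKM and mouse 3 had 43.7. The groups did not overlap, and the log2 change of 1.81 ± 0.28 (3.50-fold, adjusted p = 0.00113) rose to 2.16 without STZ mouse 3.

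G0s2, whose product holds ATGL back, ran the other way with more spread. Con mice had 15.0, 44.5 and 31.5 RPKM and STZ mice 6.49, 2.65 and 21.8 RPKM. STZ mouse 3 lay above Con mouse 1, so the groups overlapped. The log2 change was -1.75 ± 0.55, 0.297 times the Con level (adjusted p = 0.0272). It fell short of the threshold with no filter on low genes (adjusted p = 0.054), with only the 2 groups fitted (0.0848) and without Con mouse 2, Con mouse 3, STZ mouse 1 or STZ mouse 2 (0.0723 to 0.105). Leaving out each mouse in turn moved the log2 change between -2.46, without STZ mouse 3 (adjusted p = 0.000872), and -1.14, without STZ mouse 2. The lowest G0s2 value stood for about 26 reads and the highest of all 18 libraries for about 463. G0s2 (chr1:193272161-193273217, minus strand, GRCm38) lies within Lamb3 on the opposite strand, and whether reads were counted by strand is not given in the sources used here; Lamb3 itself was at 0.43 to 1.40 RPKM in all 18 libraries.

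Since the lipase and its inhibitor moved apart, their ratio shows the gap best, as a description with no test. Pnpla2 over G0s2 in RPKM was 1.24, 0.456 and 0.644 in the Con mice and 14.0, 34.7 and 2.01 in the STZ mice. It was 0.555, 1.42 and 0.898 in AOS and 5.89, 8.54 and 12.9 in STZ+AOS. All 6 mice with STZ and no transfer had a higher ratio than the 6 mice without STZ, STZ mouse 3 by the least. In A10-FMT the ratio was 1.36, 1.57 and 2.59, and in Con-FMT it was 1.66, 1.01 and 1.51. Across the 18 libraries the 2 genes had a Pearson r of -0.73 on the log2 scale, which is a description only, because the libraries fall into treatment groups. Abhd5, the activator of ATGL, was at 10.5 ± 0.280 RPKM in Con and 10.8 ± 0.896 in STZ (log2 change 0.04, adjusted p = 0.779). Under the 3 scalings its log2 change was -0.24 to -0.21, not called. Hilpda, a further ATGL inhibitor, was at 2.66 ± 0.212 and 2.43 ± 0.704 RPKM (log2 change -0.11, adjusted p = 0.617). Under the 3 scalings Hilpda was at -0.36 to -0.30, not called (adjusted p 0.151 to 0.220).

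**Figure D2:**
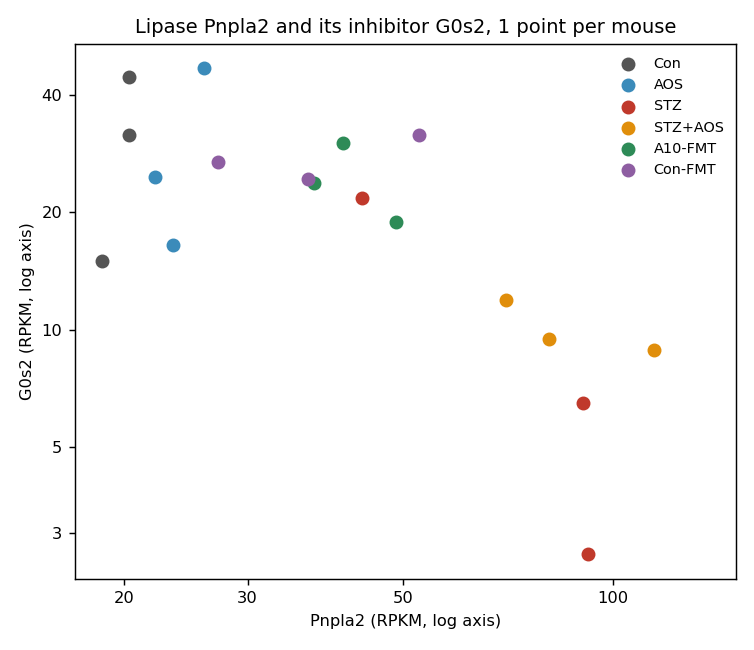
Pnpla2 (x) against G0s2 (y), both in RPKM on log axes, 1 point per mouse, coloured by group. The STZ and STZ+AOS mice lie to the lower right except STZ mouse 3 (43.7 and 21.8 RPKM), which lies among the FMT mice.

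Promoter sequence is printed for the 4 genes of these results, as 250 bases upstream of the RefSeq start site (GRCm38.p6, read 5′ to 3′ on the strand of the gene). Capitals mark matches on either strand to 7 motifs: the nuclear receptor site AGGTCA, a direct repeat of AGGNCA with 1 base between the copies, the forkhead site GTAAACA, the cAMP element TGACGTCA, its shorter form TGACG, the E-box CACGTG and the sterol element TCACNCCAC. Lpin2 has 3 listed starts, of which the first is shown. Lpin1 lies at chr12:16610967-16611216 (minus strand), Lpin2 at chr17:71183282-71183531 (plus), Pnpla2 at chr7:141454938-141455187 (plus) and G0s2 at chr1:193273189-193273438 (minus).
Lpin1: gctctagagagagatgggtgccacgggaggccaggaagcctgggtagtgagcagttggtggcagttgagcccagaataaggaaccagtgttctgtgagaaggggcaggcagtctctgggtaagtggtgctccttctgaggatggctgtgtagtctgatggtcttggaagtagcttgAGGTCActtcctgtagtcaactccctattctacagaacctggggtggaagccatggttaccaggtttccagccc
Lpin2: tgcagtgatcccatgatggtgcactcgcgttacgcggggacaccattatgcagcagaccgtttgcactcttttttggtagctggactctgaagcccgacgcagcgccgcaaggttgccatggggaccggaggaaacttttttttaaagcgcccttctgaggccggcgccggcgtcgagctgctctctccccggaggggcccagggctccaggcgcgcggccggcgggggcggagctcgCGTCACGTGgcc
Pnpla2: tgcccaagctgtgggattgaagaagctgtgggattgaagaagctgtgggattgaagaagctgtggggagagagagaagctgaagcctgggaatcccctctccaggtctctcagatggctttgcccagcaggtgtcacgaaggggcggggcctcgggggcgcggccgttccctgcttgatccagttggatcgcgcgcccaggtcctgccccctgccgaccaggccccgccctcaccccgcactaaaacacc
G0s2: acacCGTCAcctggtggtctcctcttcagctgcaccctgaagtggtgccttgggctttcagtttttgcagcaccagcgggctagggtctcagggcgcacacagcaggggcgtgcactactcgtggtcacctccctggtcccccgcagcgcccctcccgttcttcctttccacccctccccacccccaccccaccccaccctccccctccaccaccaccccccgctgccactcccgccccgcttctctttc
In Lpin1, AGGTCA stood 74 to 69 bases before the start, and 14.0% of all 32851 promoters of this length hold these letters. In Lpin2, CACGTG stood 9 to 4 bases before the start (6.02% of promoters) and overlapped a reverse TGACG match by 2 bases. G0s2 had a reverse TGACG match 246 to 242 bases before its start (17.8% of promoters). Pnpla2 held none of the 7 motifs in this window. Among the other promoters, Plin2 and 1 of 2 for Plin5 held AGGTCA, the third Lpin2 start held GTAAACA (3.17% of promoters), and no promoter of these genes held the direct repeat (0.338%), TGACGTCA (1.55%) or TCACNCCAC (1.05%). In all, 13 promoters of 9 genes were searched. The matches are descriptions of the letters and carry no statement on binding.

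The coat proteins changed less than the lipase and the lipins in log2 terms. Plin2 lies at chr4:86648386-86670060, and Plin3, Plin4 and Plin5 lie near each other on the minus strand of chromosome 17, at 56277476-56292873, 56100591-56109803 and 56111601-56117596 (GENCODE, GRCm38). Plin2, the main hepatocyte perilipin, was at 159, 146 and 156 RPKM in Con and at 114, 161 and 187 RPKM in STZ. The STZ mice lay on both sides of the Con mice. The log2 change was -0.02, with a 95% confidence interval of -0.45 to 0.40, so changes within these bounds could not be told from the spread. Its sign turned when single mice were left out (-0.18 to 0.18), and under the 3 scalings it was -0.29 to -0.27, not called (adjusted p 0.292 to 0.349).

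Plin5, which ties droplets to mitochondria in cells that burn fat, was at 14.5, 16.9 and 16.6 RPKM in Con and 21.2, 33.4 and 23.6 RPKM in STZ. All 3 STZ mice exceeded all Con mice, with a log2 change of 0.65 ± 0.26 that missed the threshold (adjusted p = 0.0656) and passed it with only the 2 groups fitted (0.0337); under the 3 scalings it was 0.39 to 0.40 (adjusted p 0.215 to 0.229). Plin3, a perilipin that also shuttles in the cytosol, was at 12.1, 16.3 and 13.3 RPKM in Con and 17.2, 22.5 and 16.0 RPKM in STZ. The groups overlapped, and the log2 change of 0.39 ± 0.14 (adjusted p = 0.0438) fell to 0.11 to 0.14 under the 3 scalings (adjusted p 0.390 to 0.508). It was also not called with no filter (0.0682), with only the 2 groups fitted (0.110) or without Con mouse 1, Con mouse 3, STZ mouse 1 or STZ mouse 2 (0.059 to 0.168). Without STZ mouse 3 the log2 changes were 0.70 for Plin5 (adjusted p = 0.0704) and 0.48 for Plin3 (adjusted p = 0.0176). Plin2 made up 63.7% to 86.7% of the summed RPKM of the perilipins in all 18 libraries. The lowest share was in STZ+AOS mouse 3 and the highest in AOS mouse 2.

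Plin4, Cidea and Cidec were too low for the fit of Con, STZ and the FMT groups, which asked for 1 RPKM in at least 3 of 12 libraries. Plin4, a perilipin of fat and muscle, was at 0.24, 0.79 and 0.65 RPKM in Con and 0.40, 0.99 and 0.98 RPKM in STZ, and reached at most 1.81 RPKM, in STZ+AOS mouse 3. Plin4 overlaps Hdgfl2 on the other strand, which was at 9.15 to 11.8 RPKM. Cidea did not exceed 0.27 RPKM, which is about 3 reads, in any library.

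Cidec, also known as Fsp27, enlarges droplets and is known to build up in fatty liver. It was at 0.31, 0.44 and 0.29 RPKM in Con and 0.78, 2.28 and 1.07 RPKM in STZ. AOS mice had 0.29, 0.23 and 0.23 RPKM and STZ+AOS mice 2.01, 1.57 and 0.90 RPKM. The 6 mice with STZ and no transfer lay above all others, the highest FMT value being 0.56 RPKM. Cidec entered the fit of all 6 groups only through 4 of these high libraries, so its call there gives no support.

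The STZ effect was also read in mice that shared no library with the first comparison. STZ+AOS against AOS called 6 of 8 tested genes, all higher, or 5 of 7 without Cidec (background 37.9%, 31.8% higher and 6.11% lower). Lpin1 was at 12.1, 7.75 and 9.19 RPKM in AOS and 51.4, 32.0 and 172 RPKM in STZ+AOS, and Lpin2 at 20.9, 19.8 and 20.3 against 40.2, 60.1 and 139 RPKM. Mouse 3 of STZ+AOS was the highest of all 18 mice for both. The log2 changes were 2.67 ± 0.48 for Lpin1 (adjusted p = 0.00102) and 1.73 ± 0.36 for Lpin2 (adjusted p = 0.00224), and without that mouse, whose pancreas markers were high, 1.98 (adjusted p = 0.00237) and 1.23 (adjusted p = 0.00686). Without it 5 of the 8 genes were called, among 3457 of all genes. These were Lpin1, Lpin2, Pnpla2 and Plin5, and also Cidec, whose call gives no support.

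Pnpla2 went from 26.0, 23.5 and 22.1 RPKM in AOS to 70.3, 81.0 and 114 RPKM in STZ+AOS. The log2 change of 1.82 ± 0.26 (3.54-fold, adjusted p = 0.000304) was close to that between STZ and Con, and was 1.62 without STZ+AOS mouse 3 (adjusted p = 0.00137). G0s2 was at 46.9, 16.5 and 24.6 RPKM in AOS and 11.9, 9.49 and 8.87 RPKM in STZ+AOS. The groups did not overlap, but the log2 change of -1.33 ± 0.52 missed the threshold (adjusted p = 0.0544) and passed it under each of the 3 scalings (0.0356 to 0.0398), with a filter of 1 RPKM in every library (0.0486), with only the 2 groups fitted (0.032) and without AOS mouse 2 (0.0446). Without STZ+AOS mouse 3 it was -1.25 (adjusted p = 0.121).

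Plin5 was at 19.8, 13.1 and 15.2 RPKM in AOS and 41.7, 21.9 and 35.0 RPKM in STZ+AOS, with a log2 change of 0.96 ± 0.27 (adjusted p = 0.0132) that did not pass under median centring (0.0516) or without AOS mouse 2 (0.0587) or STZ+AOS mouse 1 (0.0556). It was called without STZ+AOS mouse 3 (0.042). Plin3 was at 17.2, 13.6 and 15.9 RPKM and 19.8, 19.6 and 26.0 RPKM, with 0.45 ± 0.14 (adjusted p = 0.0223), and did not pass under the 3 scalings (0.196 to 0.237), with only the 2 groups fitted (0.0624) or without AOS mouse 2 (0.0999) or STZ+AOS mouse 3 (0.0968). Plin2 spread widely in STZ+AOS, at 241, 166 and 110 RPKM against 173, 177 and 159 in AOS. Its log2 change was -0.05 (95% confidence interval -0.55 to 0.46), and 0.24 without STZ+AOS mouse 3 and -0.30 to -0.22 under the 3 scalings, not called in any of these.

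**Figure D3:**
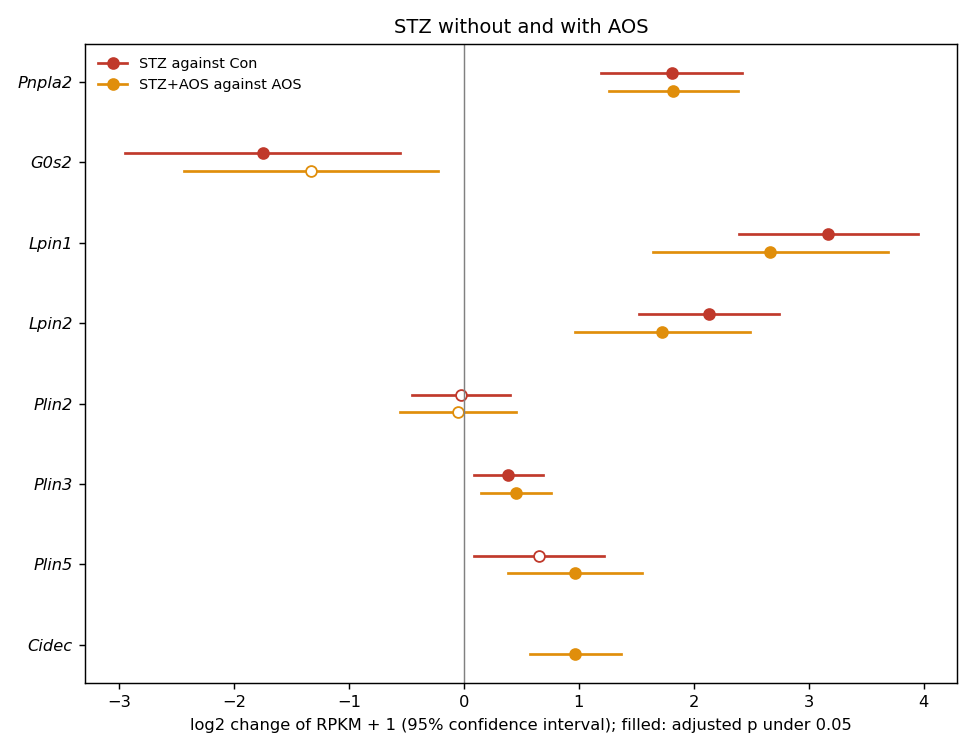
Log2 change of RPKM + 1 with its 95% confidence interval (x) for each gene (y) in STZ against Con and in STZ+AOS against AOS, which share no mouse; filled points have an adjusted p under 0.05. Lpin1, Lpin2 and Pnpla2 lie at 1.73 to 3.17 in both, G0s2 at -1.75 and -1.33, and Plin2 at -0.02 and -0.05; Cidec was tested in the second only.

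AOS on its own called none of the 8 genes against Con (limma, background 0.00924%; 0 of 8 at an unadjusted p under 0.05, and 781 of all 10822 genes). Lpin2 was at 20.9, 19.8 and 20.3 RPKM in AOS, above all Con mice, with a log2 change of 0.73 (95% confidence interval -0.03 to 1.49, adjusted p = 0.688). It was called with only the 2 groups fitted (0.0339), where the spread of the other groups does not enter. Lpin1 was likewise higher in every AOS mouse (log2 change 0.79, interval -0.23 to 1.82), and so were Pnpla2 (0.26, -0.30 to 0.82) and Plin2 (0.14, -0.36 to 0.65). The mice of these groups did not overlap for 24.4% of all tested genes, so such gaps were common. STZ+AOS against STZ also called 0 of 8 (background 0%; 0 of 8 genes and 657 of all genes at an unadjusted p under 0.05). The groups overlapped for all 8, and the interval for Lpin1 ran from -0.74 to 1.31. The difference between the 2 AOS effects called 0 of 8 as well (background 0%; 0 of 8 and 584 of all genes unadjusted).

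The FMT groups were then set against STZ and against Con. Lpin1 was at 13.1, 20.2 and 27.1 RPKM in A10-FMT and 12.3, 30.1 and 36.4 RPKM in Con-FMT. Every FMT mouse had less than every STZ mouse and more than every Con mouse. The log2 change against STZ was -1.43 ± 0.35 in A10-FMT (adjusted p = 0.0795) and -1.13 ± 0.35 in Con-FMT (adjusted p = 0.127), so neither was called. The second ranged from -1.43 without Con-FMT mouse 3 to -0.68 without Con-FMT mouse 1. The A10-FMT and Con-FMT comparisons share the 3 STZ mice.

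Lpin2 was at 27.6, 31.3 and 45.8 RPKM in A10-FMT and 29.9, 17.2 and 28.3 RPKM in Con-FMT. All Con-FMT mice lay under the STZ mice (log2 change -1.15 ± 0.28, adjusted p = 0.0792), whereas A10-FMT mouse 3 lay above STZ mouse 3 (-0.68 ± 0.28, adjusted p = 0.201). Pnpla2 was at 41.1, 37.3 and 48.9 RPKM in A10-FMT and 52.7, 27.2 and 36.6 RPKM in Con-FMT. STZ mice 1 and 2 lay far above these and STZ mouse 3 among them, with log2 changes of -0.75 (adjusted p = 0.173) and -0.91 (adjusted p = 0.121).

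G0s2 was at 30.1, 23.9 and 18.9 RPKM in A10-FMT and 31.7, 26.9 and 24.3 RPKM in Con-FMT. These values lay within the range of Con, and all Con-FMT mice lay above all STZ mice. The log2 changes against STZ were 1.54 ± 0.55 (adjusted p = 0.157) and 1.74 ± 0.55 (adjusted p = 0.128). Leaving out STZ mouse 2 lowered them to 0.93 and 1.12 (adjusted p = 0.476 and 0.388), whereas leaving out STZ mouse 3 gave 2.25 and 2.45. Plin5 was at 14.6, 14.2 and 19.1 RPKM in A10-FMT, under all STZ mice (log2 change -0.66, adjusted p = 0.187), and at 30.7, 12.9 and 19.4 RPKM in Con-FMT, where the groups overlapped.

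Of the 7 tested genes, 0 were called in A10-FMT against STZ (limma, background 0.226%) and 0 in Con-FMT against STZ (background 0.00943%), with 6 and 4 of them at an unadjusted p under 0.05, as were 2212 and 2131 of all 10602 genes. Groups did not overlap for 2 of 7 genes in A10-FMT against STZ (Lpin1 and Plin5; 21.5% of all genes) and for 3 of 7 in Con-FMT against STZ (Lpin1, Lpin2 and G0s2; 17.7%). The counts of calls turned on STZ mouse 3, and stayed at 0 in both comparisons when any other mouse was left out. Without STZ mouse 3, 4 genes were called in A10-FMT against STZ, Lpin1 (log2 change -1.55, adjusted p = 0.031), Lpin2 (-0.98, 0.0282), Pnpla2 (-1.10, 0.0115) and G0s2 (2.25, 0.00784), among 1343 of all genes. In Con-FMT against STZ 3 were called without it, Lpin2 (-1.45, 0.00528), Pnpla2 (-1.26, 0.00521) and G0s2 (2.45, 0.00454), among 1636 of all genes. That mouse was singled out from these same libraries, at a distance from Con like that of the FMT mice. Leaving it out favoured such calls in advance, so they give no support.

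Measured from Con, 3 of 7 genes were called higher in each FMT group and none lower, Lpin1, Lpin2 and Pnpla2. The background was 18.4% in A10-FMT (15.9% higher) and 19.4% in Con-FMT (17.5% higher), and both comparisons share the Con mice. In A10-FMT the log2 changes were 1.74 for Lpin1 (adjusted p = 0.0102), 1.45 for Lpin2 (adjusted p = 0.00814) and 1.06 for Pnpla2 (adjusted p = 0.0259). In Con-FMT they were 2.04 (adjusted p = 0.00625), 0.99 (adjusted p = 0.0327) and 0.89 (adjusted p = 0.0446). Under the 3 scalings Lpin2 and Pnpla2 were no longer called in Con-FMT (adjusted p 0.0748 to 0.134), with no filter (0.062 and 0.0833) or with the replicate number as a block (0.0591 and 0.0623), and Lpin2 was not called with all 6 groups fitted (0.0663). Nor was Lpin2 called there without Con mouse 1, Con mouse 3, Con-FMT mouse 1 or Con-FMT mouse 3 (0.0874 to 0.127), or Pnpla2 without any mouse other than Con-FMT mouse 2 (0.0825 to 0.174). Pnpla2 in A10-FMT was not called under quantile normalization (0.0567), with no filter (0.0503) or without any mouse other than A10-FMT mouse 2 (0.0526 to 0.0974). Plin2, Plin3, Plin5 and G0s2 were not called in either FMT group.

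**Figure D4:**
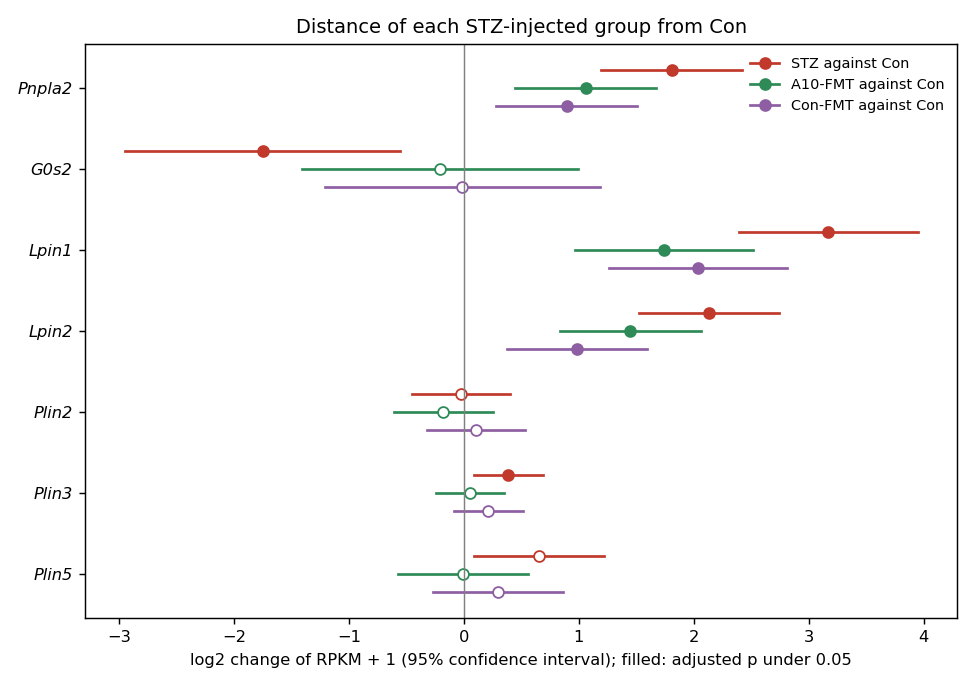
Log2 change of RPKM + 1 from Con with its 95% confidence interval (x) for the 7 tested genes (y) in the STZ, A10-FMT and Con-FMT mice; the 3 comparisons share the Con mice, and filled points have an adjusted p under 0.05. For Lpin1 the values are 3.17, 1.74 and 2.04, for Pnpla2 1.81, 1.06 and 0.89, and for G0s2 -1.75, -0.21 and -0.01.

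The A10-FMT and Con-FMT mice overlapped for all 7 genes, and none was called between them (limma, background 0%; 0 of 7 genes and 303 of all genes at an unadjusted p under 0.05). The intervals were wide. They ran from -1.07 to 0.48 on the log2 scale for Lpin1, -0.15 to 1.07 for Lpin2, -0.45 to 0.78 for Pnpla2 and -1.39 to 1.00 for G0s2.

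The neighbouring steps of droplet metabolism gave a mixed picture. Of 12 tested lipolysis genes in STZ against Con, 3 were higher (Pnpla2, Abhd6 and Ddhd2) and 2 lower (Aadac and Pnpla7), beside 33% and 5.52% of all genes, with a median log2 change of 0.01 against 0.21 over all genes. Abhd6 and Ddhd2 were not called under any of the 3 scalings (adjusted p 0.0893 to 0.099 and 0.134 to 0.197), which were applied to the gene lists after their values were seen, and 1 gene, Pnpla2, was then left higher. Nor were they called without Con mouse 1 (0.0711 and 0.0781), Abhd6 without STZ mouse 1 (0.0585) or Ddhd2 without STZ mouse 2 (0.074). Without STZ mouse 3 there were 3 higher and 3 lower. The monoacylglycerol lipase Abhd6 went from 17.2 ± 2.66 to 28.4 ± 5.26 RPKM (adjusted p = 0.0168) and the lipase Ddhd2 from 3.63 ± 0.486 to 5.40 ± 1.07 (adjusted p = 0.019). Aadac, a deacetylase of the endoplasmic reticulum, went from 254 ± 46.3 to 128 ± 28.6 RPKM (adjusted p = 0.00324), and the lysophospholipase Pnpla7 from 27.3 ± 2.15 to 20.6 ± 1.21 (adjusted p = 0.0288), which did not pass without Con mouse 2, Con mouse 3, STZ mouse 1 or STZ mouse 2 (0.0763 to 0.0857). Neither Lipe, the hormone-sensitive lipase (4.50 ± 0.492 and 5.94 ± 0.821 RPKM, adjusted p = 0.182), nor the monoacylglycerol lipase Mgll (40.3 ± 2.71 and 38.7 ± 12.8 RPKM, adjusted p = 0.681) was called; without STZ mouse 3 Mgll was called lower (log2 change -0.35, adjusted p = 0.0395). In STZ+AOS against AOS, 2 of 13 were higher and 5 lower. Among the 5 was Pnpla3, a gene that insulin is known to raise, at 2.87 ± 1.33 RPKM in AOS and 0.283 ± 0.176 in STZ+AOS. It passed the filter only through its Con and AOS levels, so its call gives no support, and without it 2 of 12 were higher and 4 lower (background 31.8% and 6.11%). With Pnpla3, 2 were higher and 4 lower without STZ+AOS mouse 3, and also without STZ+AOS mouse 1 or any single AOS mouse. Without STZ+AOS mouse 2 there were 3 higher and 5 lower. Under the scalings, also with Pnpla3, 2 were higher and 6 lower by median ratio, 1 and 5 by median centring, and 2 and 5 by quantile normalization.

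Of 11 tested lipin and triglyceride synthesis genes, 5 were higher in STZ (Lpin1, Lpin2, Agpat3, Gpat4 and Dgat1) and 1 lower (Agpat2), beside 33% and 5.52% of all genes; Lpin1 and Lpin2 of these 5 were described above. The median log2 change of this list was 0.50 against 0.21 over all genes. Agpat3, an acyltransferase, went from 46.8 ± 2.09 to 94.4 ± 13.0 RPKM (adjusted p = 0.000907), and Gpat4, which starts glycerolipid synthesis, from 21.6 ± 0.247 to 37.2 ± 6.70 RPKM (adjusted p = 0.0042). Agpat2 went from 200 ± 13.9 to 126 ± 29.5 RPKM (adjusted p = 0.00918). Dgat1, which completes triglyceride from returning fatty acids, went from 8.62 ± 0.975 to 14.7 ± 2.32 RPKM (adjusted p = 0.00352). Its partner Dgat2 was at 142 ± 10.6 and 152 ± 25.8 RPKM (adjusted p = 0.617) and Gpam at 38.8 ± 8.94 and 29.4 ± 5.48 RPKM (adjusted p = 0.108). Under the 3 scalings Gpam was called lower (log2 change -0.64 to -0.62, adjusted p 0.0131 to 0.0164), Gpat4 was not called under quantile normalization (0.0543), and Dgat2 turned to between -0.18 and -0.16, not called. In STZ+AOS against AOS the counts were again 5 higher and 1 lower of 11 (background 31.8% and 6.11%), and 5 higher and 2 or 3 lower under the scalings. Without STZ mouse 3 the counts in STZ against Con stayed at 5 and 1, but they were 5 and 2 without Con mouse 1. In STZ+AOS against AOS they were 5 and 2 without STZ+AOS mouse 3 or without AOS mouse 2. Agpat3, Gpat4, Dgat1 and Agpat2 kept their call in STZ against Con whichever mouse was left out.

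Droplet formation and other droplet proteins had 4 of 13 tested genes higher and 1 lower in STZ, a share near the 33% and 5.52% of all genes, and 5 higher and 1 lower in STZ+AOS against AOS (background 31.8% and 6.11%). Under each of the 3 scalings 1 was higher and 2 were lower in both comparisons. In STZ against Con 5 were higher and 2 lower without STZ mouse 3, but 1 was higher without Con mouse 1 or Con mouse 3 and 2 without STZ mouse 2. In STZ+AOS against AOS 2 were higher without STZ+AOS mouse 3 and 3 without AOS mouse 1, AOS mouse 2 or STZ+AOS mouse 2. Hsd17b11, a droplet dehydrogenase, went from 66.6 ± 12.8 to 132 ± 15.7 RPKM (adjusted p = 0.00141) and stayed called under the scalings. The droplet GTPase Rab18 was at 25.3 ± 0.951 and 30.6 ± 2.51 RPKM (log2 change 0.26, adjusted p = 0.0288), near the shift of all genes, and under the scalings its log2 change was -0.03 to 0.01 (adjusted p 0.821 to 0.988). It was also not called without Con mouse 1, Con mouse 3 or STZ mouse 2 (0.0598 to 0.106). Fitm1, a protein of droplet formation, went from 21.1 ± 7.44 to 5.45 ± 2.11 RPKM (adjusted p = 0.00264), also called under each scaling. Cideb, the main CIDE protein of the hepatocyte, was at 157 ± 19.7 and 163 ± 19.7 RPKM and was not called (adjusted p = 0.768); under the scalings its log2 change was -0.22 to -0.19, not called. Plin1, the perilipin of adipocytes, was listed at 0 in 17 of 18 libraries.

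PPAR alpha, the receptor that fatty acids released from droplets can activate, was represented by 12 target genes that code for no droplet protein. Of these, 9 were higher in STZ and 0 lower, with a median log2 change of 1.18 (background 33% and 5.52%), and 7 were higher and 1 (Fgf21) lower in STZ+AOS against AOS (31.8% and 6.11%). The counts of higher genes were the same under the 3 scalings and with each mouse left out in turn, while Fgf21 was not called lower without STZ+AOS mouse 3. In STZ against Con, Cyp4a14 and Fgf21 passed the filter although under 1 RPKM in every Con or every STZ mouse respectively, and without them 8 of 10 were higher, with a median of 1.18. The omega-hydroxylase gene Cyp4a10 went from 2.27 ± 0.852 to 1046 ± 306 RPKM (log2 change 8.31, adjusted p = 1.88e-05). Its neighbour in the family, Cyp4a14, was at 0.440 ± 0.208 RPKM in Con and 802 ± 358 in STZ; it was tested only through the mice with STZ, so its call gives no support. The Cyp4a genes are close copies of each other, so reads may be split between them. Both also stood above Con in the FMT groups, Cyp4a10 at 343 ± 131 RPKM in A10-FMT and 501 ± 371 in Con-FMT.

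**Figure D5:**
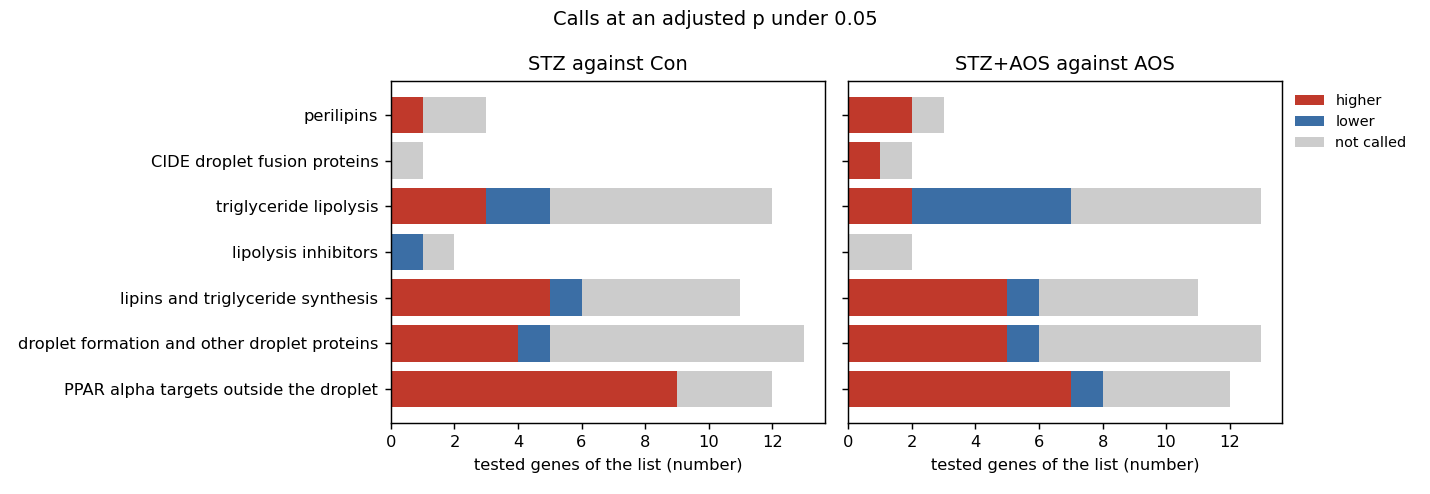
Number of tested genes (x) in each gene list (y) that were higher, lower or not called at an adjusted p under 0.05, in STZ against Con (left) and STZ+AOS against AOS (right). PPAR alpha targets have 9 of 12 and 7 of 12 genes higher, while the lipolysis list holds 3 higher and 2 lower of 12 on the left and 2 higher and 5 lower of 13 on the right. Cyp4a14 (left) and Pnpla3 and Cidec (right) are counted although they passed the filter through their high groups only.

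Hepatocyte markers moved in both directions. In STZ against Con, Tat, Cps1 and Hnf4a were higher and Ttr, Apoa1 and Serpina1a lower, beside 33% and 5.52% of all genes. The same 3 and 3 of the 8 were called in STZ+AOS against AOS (background 31.8% and 6.11%). In STZ+AOS mouse 3 Tat was at 4124 RPKM, against 1276 and 993.8 in STZ+AOS mice 1 and 2. Cps1, which starts the urea cycle, went from 298 to 449 RPKM in Con to 920 to 1014 in STZ (log2 change 1.37, adjusted p = 0.000512), and the transport protein gene Ttr from 3721 to 6090 RPKM to 2387 to 2733 (log2 change -0.92, adjusted p = 0.0056). Alb was not called in either comparison. Under quantile normalization Apoa1 was not called in either comparison (adjusted p = 0.866 and 0.378), nor Ttr in STZ against Con (0.0679). The log2 change of Apoa1 in STZ against Con turned from -0.70 in the main fit to 0.06 there. The part of these shifts in the results was not tested.

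Adipocyte RNA was looked for because perilipins and Cidec are also fat cell genes. Of 10 white adipocyte markers, a list that also holds Cidec, 6 stayed under 1 RPKM in every library, Lep was at 0 in all 18, Adipoq did not exceed 0.12 RPKM and Plin1 did not exceed 0.04. The summed level of the list was 13.4 to 15.0 RPKM in Con and 18.9 to 38.8 in STZ, and its most abundant gene was Fabp4, at 7.31 to 8.84 RPKM in Con and 11.5 to 29.7 in STZ. Of 5 brown adipocyte markers, Cidea among them, Ucp1 did not exceed 0.04 RPKM, and the sum was 229 RPKM in Con and 14.7 in STZ. Elovl3, a gene that hepatocytes also express, led it in Con at 209 to 239 RPKM and was at 0.19, 0.06 and 12.03 RPKM in STZ. Cox7a1, a muscle and heart subunit of cytochrome oxidase, was at 3.19 to 4.30 RPKM in Con and led in STZ mice 1 and 2, at 11.4 and 16.8 RPKM, with 2.52 RPKM in STZ mouse 3. The summed markers of Kupffer cells and macrophages averaged 73.7 RPKM in Con and 147 in STZ (1 of 6 called, higher), with 96.1 in the A10-FMT group and 96.0 in the Con-FMT group, led by Cd5l in most libraries. Those of stellate cells, led by Dcn, were 75.8 RPKM in Con and 119 in STZ (1 of 6 called, higher), and those of liver endothelial cells 37.4 and 45.9 RPKM (2 of 5 called, higher). The counts for these lists and for the Kupffer cells stand beside 33% of all genes called higher, so such calls were common. Red blood cell markers, led by Hba-a1, summed to 1256 to 1972 RPKM in Con, 470 to 1874 in STZ and 1401 to 2863 in A10-FMT. In Con-FMT they were at 2344 and 3336 RPKM in mice 2 and 3 and at 9167 RPKM, the highest of the 18 libraries, in mouse 1. Alas2, also on this list, did not follow the sum. Con mice had 113.9 to 121.1 RPKM of it, and STZ mice 1, 2 and 3 had 3.59, 9.75 and 43.4 RPKM. The FMT mice lay between 37.1 RPKM (A10-FMT mouse 2) and 55.5 RPKM (Con-FMT mouse 3). Of 4 tested red blood cell genes, 1 was called lower in STZ against Con and 0 higher (background 5.52% lower). STZ+AOS against AOS gave the same counts (6.11%). Exocrine pancreas markers summed to 36.9 RPKM in Con, 39.2 in AOS and 6.41 in STZ. These sums were nearly all Cela1, at 30.8 to 40.5 RPKM in Con and 2.96 to 8.73 in STZ. No other marker of the list exceeded 0.64 RPKM in a Con mouse or 1.34 in an STZ mouse. The highest sum was in STZ+AOS mouse 3, where Ctrb1 led. The part of these cells in the results was not tested.

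Over the 18 libraries, whose points share group and mouse, Pnpla2 and Lpin2 had a Pearson r of 0.96 on the log2 scale, Lpin1 and Lpin2 0.90, and Lpin1 and Pnpla2 0.87. Plin2 stood outside this pattern, with r between -0.30 and 0.28 to the other tested genes. The genes most like Pnpla2 among all tested were Ubl3 (r = 0.993), Cul3 (0.988) and Pi4ka (0.987), those most like Lpin1 were Elf2 (0.952), Slc38a2 (0.950) and Ifrd1 (0.947), and those most like Lpin2 were Pcbp2 (0.974), Kcmf1 (0.968) and Sec24b (0.968). Closest to G0s2 were Mgst1 (0.932), Klhl42 (0.903) and Nat8f2 (0.888), and closest to Plin2 was Vps8, at 0.821. Cidec was most like Pcsk5 (0.939), Sult1e1 (0.924) and Acox2 (0.924).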

How the data were processed

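Liver mRNA was enriched with oligo(dT) and sequenced, and the authors deposited 1 RPKM value per gene and library. Their methods name SOAPaligner for mapping, while the submitters' processing notes list Bowtie 0.12.2 and mm10. Genes that reached 1 RPKM in 3 or more libraries were kept and analysed as log2(RPKM + 1) with limma 3.58.1 in R 4.3.3 (eBayes with trend), p-values being adjusted over all tested genes by the Benjamini-Hochberg method. Con, STZ and the FMT groups were fitted together (12 libraries, 10602 genes); comparisons with AOS used all 18 libraries (10822 genes). The threshold was an adjusted p of 0.05. No count test was run, because the values are RPKM. The procedure was tested on simulated data.

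The 10 genes and all gene lists were chosen with earlier results of these data known. Of 125 list genes, 124 were matched, 2 by an older symbol. Named genes were the 10, fixed partner genes, and per list the called genes with the smallest adjusted p (at most 2 in each direction), plus the genes closest in Pearson r; Fgf21 was named after its value was seen. Positions are from GENCODE M21 (GRCm38) and promoters from RefSeq. Approximate reads were computed from transcript length and the value of 1 read, which was sought within a preset window and is rough. Alternatives were 3 scalings, a pseudocount of 0.1, other filters, no trend, other sets of groups, a replicate block and leaving out each mouse. The droplet, lipolysis, synthesis and PPAR alpha gene lists were run under the scalings and without each mouse after the data were seen. Of the cell marker lists, only the hepatocyte markers were run under the scalings, and none was run without single mice.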

Additional observations from a re-analysis of the deposited data

How the results depend on the processing

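Lpin1, Lpin2 and Pnpla2 kept their direction and their call in STZ against Con and in STZ+AOS against AOS under every alternative run. In STZ against Con the log2 change of Lpin1 ranged from 2.93 to 3.38 over the other settings, Lpin2 from 1.88 to 2.21 and Pnpla2 from 1.55 to 1.85. The number of the tested genes called in STZ against Con was 5, with 4 to 6 over the other settings and 3 to 5 without 1 mouse. The count of 6 includes Cidec, which was tested when all 6 groups were fitted and whose call gives no support. In that comparison 3 were left without Con mouse 3, STZ mouse 1 or STZ mouse 2. In A10-FMT against STZ it was 0, and 0 to 4 without 1 mouse; in Con-FMT against STZ 0, and 0 to 3. In Con-FMT against Con it was 3, and 1 under median-ratio scaling, 1 under median centring, 1 under quantile normalization, 1 with the replicate block, and 1 to 3 without 1 mouse (1 without Con mouse 1, Con mouse 3, Con-FMT mouse 1 or Con-FMT mouse 3). Lpin2 and Pnpla2 also lost their call in that comparison with no filter, and Lpin2 with all 6 groups fitted. AOS against Con went from 0 to 1 with only the groups compared. The cause of these changes was not tested. Over the settings other than left-out mice, genes called among all tested ranged from 2651 to 4098 in STZ against Con (main 4087), 2483 to 4091 in STZ+AOS against AOS (4102), 1109 to 3355 in A10-FMT against Con (1953), 824 to 2128 in Con-FMT against Con (2059), 1 to 77 in A10-FMT against STZ (24), 0 to 94 in Con-FMT against STZ (1), 0 to 41 in AOS against Con (1), 0 to 6 in STZ+AOS against STZ (0) and 0 to 3 for the difference of AOS effects (0). Without 1 mouse they ranged from 2562 to 5012, 2767 to 4045, 547 to 1468, 603 to 2096, 0 to 1343, 0 to 1636, 0 to 6, 0 to 2 and 0 to 0 in the same order.

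Among the 10 genes, no called value changed sign, and signs that turned belonged to changes not called in either fit. Plin3 in A10-FMT against Con was -0.13 under median-ratio scaling, -0.12 under median centring and -0.17 under quantile normalization; Plin2 in Con-FMT against Con was -0.11, -0.10 and -0.17; Plin3 in Con-FMT against Con was -0.022 under quantile normalization. Without 1 mouse, log2 changes spanned 0 as follows. In STZ+AOS against STZ, Plin2 ran from -0.16 to 0.40, Lpin1 from -0.40 to 0.80, Lpin2 from -0.17 to 0.71, G0s2 from -0.24 to 1.08, Pnpla2 from -0.073 to 0.45 and Cidec from -0.089 to 0.35. In A10-FMT against Con, G0s2 ran from -0.63 to 0.12, Plin3 from -0.034 to 0.17 and Plin5 from -0.14 to 0.064. In Con-FMT against Con, G0s2 ran from -0.43 to 0.32, Plin2 from -0.067 to 0.23 and Plin5 from -0.0087 to 0.59. In AOS against Con, G0s2 ran from -0.47 to 0.29 and Plin5 from -0.16 to 0.11. Plin2 ran from -0.18 to 0.18 in STZ against Con, -0.36 to 0.0013 in A10-FMT against STZ, -0.076 to 0.28 in Con-FMT against STZ and -0.32 to 0.24 in STZ+AOS against AOS, and Pnpla2 from -0.059 to 0.41 in A10-FMT against Con-FMT.

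The droplet, lipolysis, synthesis and PPAR alpha gene lists were run under the 3 scalings and without each mouse after the data were seen. The calls of Rab18 (STZ against Con and STZ+AOS against AOS) and of Abhd6 and Ddhd2 (STZ against Con) were lost under all 3, while Gpam (both comparisons) and Cideb (STZ+AOS against AOS) were called lower under all 3. Log2 changes that turned are given for median-ratio scaling, median centring and quantile normalization in that order. In STZ against Con they were -0.2111, -0.2078 and -0.2409 for Abhd5, -0.2142, -0.1896 and -0.2152 for Cideb, -0.1821, -0.1577 and -0.1809 for Dgat2 and -0.1573, -0.2373 and -0.132 for Lpin3; Rab18 was -0.001948 under the first and -0.02729 under the last. In STZ+AOS against AOS they were -0.003159, -0.02909 and -0.0224 for Abhd5, -0.007818, -0.06063 and -0.03107 for Ddhd2 and -0.2181 under median centring for Lpin3, with -0.117 and -0.105 under the others. Without 1 mouse, changes that spanned 0 ran, in STZ against Con, from -0.009478 to 0.09839 for Abhd5, -0.0432 to 0.1376 for Cideb, -0.04556 to 0.1798 for Dgat2, -0.08701 to 0.1032 for Lpin3 and -0.3527 to 0.07438 for Mgll, and in STZ+AOS against AOS from -0.07752 to 0.2179 for Lpin3. The cause was not tested.

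Mice share only numbers between groups. Same-numbered mice of different groups had correlations of -0.25 to 0.47 (median 0.03, 16 of 45 over 0.1) in their deviations from group means. Other-numbered mice of different groups had -0.53 to 0.45 (median -0.01, 16 of 90 over 0.1). Values over 0.1 were thus more frequent among same-numbered mice. The labels name no pairs, and the main fits did not take the numbers as pairs. With the replicate block, 1 of 7 genes was called in Con-FMT against Con, and 3 in the main fit.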
